A study of Homo sapiens with 12 samples.

Results

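The levels of 5 genes were followed over 4 groups of RNA-seq libraries: TGM2, NT5E, MARCH4, SLCO4A1 and MYEOV, that is 5 of the 58735 genes counted and 5 of the 16218 that passed the filter on low counts. They were chosen on measured values, as genes outside the usual lists of MAPK output whose counts were lower with the ERK inhibitor GDC-0994 in both cell lines. Their differences between GDC-0994 and DMSO are therefore given as a description, with no test. TGM2, NT5E, SLCO4A1 and MYEOV were taken by gene name and MARCH4 by its ID, ENSG00000144583, because the deposited name of that gene is a date. All 5 passed the filter.

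Both cell lines came from human anaplastic thyroid carcinoma, a thyroid cancer that has lost its differentiated features. KHM-5M, labelled as carrying BRAF V600E and grown in RPMI-1640, received 1 µM GDC-0994 or DMSO for 24 hours. TTA-1, labelled BRAF wild type and grown in DMEM, received the same 1 µM GDC-0994 or DMSO for 24 hours. Each of the 4 groups had 3 libraries of poly-A selected RNA, 12 in all. GDC-0994, also called ravoxertinib, inhibits the ERK kinases, and DMSO is its vehicle. Each genotype was represented by 1 line, so that genotype, line and culture medium cannot be told apart. Nothing in the labels says that the 3 libraries of a group came from separate cultures, so p-values measure the spread between these libraries, which may be technical.

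Total counts ran from 14952970 to 18389915 per library. The TTA-1 DMSO replicates 1 and 2 stood farthest apart of the 12 pairs of libraries within a group, with a mean absolute log2 difference of 0.301 per gene, against 0.108 to 0.213 in the other pairs. Of the thyroid markers, TG, TSHR, SLC5A5 and NKX2-1 were at or near 0 in both lines. PAX8, a transcription factor of thyroid cells, averaged 120.2 ± 4.08 CPM (counts scaled by TMM library size, SD, n = 3) in KHM-5M GDC-0994 and 210.2 ± 8.69 CPM in KHM-5M DMSO (edgeR adjusted p = 6.27e-07), and 3.65 ± 0.63 CPM in TTA-1 GDC-0994 and 3.59 ± 0.55 CPM in TTA-1 DMSO. FOXE1, another such factor, averaged 1.96 and 2.46 CPM in KHM-5M GDC-0994 and DMSO, and 0.34 and 0.24 CPM in TTA-1 GDC-0994 and DMSO. Whether these markers have a part in the results was not tested. Each of the 5 epithelial and 4 mesenchymal markers had counts in every group, but some were low. CDH1 had 58 counts in KHM-5M GDC-0994 and 1 in KHM-5M DMSO, against 151 and 90 in TTA-1 GDC-0994 and DMSO. KRT19 had 15 and 8 counts in TTA-1 GDC-0994 and DMSO. FN1 averaged 2.42 and 1.73 CPM in TTA-1 GDC-0994 and DMSO, against 5506 and 3904 CPM in KHM-5M GDC-0994 and DMSO. Of 5 blood markers, 3 had no count in each KHM-5M group and 4 had none in each TTA-1 group. CD14, also on that list, had 109 and 105 counts in KHM-5M GDC-0994 and DMSO. It had 3 and 5 counts in TTA-1 GDC-0994 and DMSO.

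ERK is the last kinase of the RAS-RAF-MEK-ERK cascade, in which an active BRAF signals through MEK to ERK, and ERK phosphorylates transcription factors that raise the transcription of many genes. The 5 genes have different known roles. TGM2 encodes transglutaminase 2, which cross-links proteins in the presence of calcium, binds GTP, and on the cell surface binds fibronectin and integrins. NT5E encodes CD73, a surface enzyme that turns AMP outside the cell into adenosine. MARCH4, now named MARCHF4, encodes a membrane-bound ubiquitin ligase that can lower surface proteins such as MHC class I when overexpressed. SLCO4A1 encodes an organic anion transporter that can carry thyroid hormones. MYEOV is named for its overexpression in myeloma, and its function is not well known.

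The genes lay on 4 chromosomes in GRCh38. TGM2 (ENSG00000198959) spans bases 38127387 to 38166578 of chromosome 20, on the minus strand, with 6 annotated transcripts and 8036 exonic bases. SLCO4A1 (ENSG00000101187) spans bases 62642445 to 62685785 of the same chromosome, on the plus strand, 24.5 Mb away, with 4051 exonic bases in 9 transcripts. NT5E (ENSG00000135318) spans bases 85449584 to 85495791 of chromosome 6, on the plus strand, with 4533 exonic bases in 5 transcripts. MARCH4 spans bases 216257865 to 216372027 of chromosome 2, on the minus strand, with 4447 exonic bases in 1 transcript. MYEOV (ENSG00000172927) spans bases 69294138 to 69367726 of chromosome 11, on the plus strand, with 3760 exonic bases in 12 transcripts, and lies 273 kb from CCND1, the cyclin D1 gene.

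Because the 5 genes were lower together with an inhibitor of a kinase that acts on transcription factors, the bases before their starts were searched in the RefSeq promoter table (GRCh38.p14), which gave NT5E and MARCH4. The search covered the 250 bases upstream of the RefSeq start, on both strands, for TGANTCA (AP-1), CCGGAA (ETS), GGGCGG (SP/KLF) and TATAAA, the letters of the TATA box. The matches found do not overlap. The NT5E window held 2 matches to GGGCGG, both on the minus strand, at 72 to 67 and at 49 to 44 bases before the start, and none to the other letters. Of all 35116 windows of that length, 42.6% held GGGCGG, 14.5% held CCGGAA, 10.7% held TATAAA and 6.57% held TGANTCA. The MARCH4 window held none of the 4, and G and C made up 55.2% of it, against 75.2% of the NT5E window. On the minus strand, the annotated transcript of MARCH4 starts at base 216372027. The bases between that start and the MARCH4 window were not searched. The stretch of NT5E from the first match to the last, at chr6:85450011-85450039 on the plus strand, lies in an exon and 5′ UTR of 1 longer transcript of GENCODE 29. It is shown with the matches in capitals, beside the whole MARCH4 window, at chr2:216372484-216372733 on the minus strand, which has none.
NT5E: CCGCCCcggccttgacccgggccCCGCCC
MARCH4: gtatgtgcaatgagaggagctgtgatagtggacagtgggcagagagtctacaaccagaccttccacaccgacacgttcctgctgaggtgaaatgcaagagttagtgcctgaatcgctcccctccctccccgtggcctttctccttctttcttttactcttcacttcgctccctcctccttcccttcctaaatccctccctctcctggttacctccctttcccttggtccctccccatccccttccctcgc
A match is a description of these letters and not a binding site.

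TGM2 had the highest mean level per length of the 5 in both KHM-5M groups. It was at 21.7, 20.4 and 17.8 FPKM (fragments per kilobase of exon, scaled by library size) in KHM-5M GDC-0994 replicates 1, 2 and 3, against 278, 278 and 259 FPKM in KHM-5M DMSO. In TTA-1 it was at 3.76, 3.44 and 3.27 FPKM with GDC-0994, against 18.1, 14.2 and 14.9 FPKM in DMSO. All treated libraries lay below all DMSO libraries in both lines, and the KHM-5M libraries with GDC-0994 overlapped the TTA-1 libraries in DMSO. In bulk RNA, fewer cells that express a gene and less of its RNA per cell cannot be told apart. The mean of KHM-5M DMSO, 272 ± 10.8 FPKM (SD, n = 3), ranked 101 of the 13260 protein-coding genes tested. In CPM, 7.20% of the DMSO level was left in KHM-5M with GDC-0994 and 22.2% in TTA-1.

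NT5E was at 9.76, 10.2 and 8.78 FPKM in the 3 KHM-5M GDC-0994 libraries, against 90.6, 88.9 and 87.8 FPKM in KHM-5M DMSO. In TTA-1 it was at 1.01, 0.810 and 1.01 FPKM with GDC-0994, against 4.01, 5.11 and 4.26 FPKM in DMSO. No libraries of any 2 groups overlapped, and the order of the groups was KHM-5M DMSO, KHM-5M GDC-0994, TTA-1 DMSO and TTA-1 GDC-0994 from high to low. With GDC-0994, 10.6% of the DMSO level in CPM was left in KHM-5M and 21.2% in TTA-1.

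MARCH4 kept the same order of groups as NT5E, with lower levels. It was at 5.71, 6.04 and 5.74 FPKM in KHM-5M GDC-0994, against 25.1, 24.3 and 22.9 FPKM in KHM-5M DMSO. In TTA-1 it was at 1.06, 1.01 and 0.911 FPKM with GDC-0994, against 3.23, 2.67 and 2.78 FPKM in DMSO. Again no libraries of any 2 groups overlapped. What was left of the DMSO level in CPM, 23.8% in KHM-5M and 34.5% in TTA-1, was closer between the lines than for the other 4 genes as a difference of log2 fold changes.

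SLCO4A1 had another pattern, in which the DMSO libraries of both lines were alike. It was at 0.620, 0.483 and 0.543 FPKM in KHM-5M GDC-0994, against 16.5, 15.5 and 15.9 FPKM in KHM-5M DMSO. In TTA-1 it was at 9.53, 11.2 and 9.42 FPKM with GDC-0994, against 17.4, 14.2 and 15.6 FPKM in DMSO. The treated libraries were lower in both lines without overlap, while KHM-5M DMSO lay within the range of TTA-1 DMSO. Of the DMSO level in CPM, 3.37% was left in KHM-5M and 63.9% in TTA-1. The KHM-5M value with GDC-0994 rested on 47, 35 and 36 counts.

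MYEOV was at 0.398, 0.728 and 0.731 FPKM in KHM-5M GDC-0994, against 14.45, 15.2 and 13.1 FPKM in KHM-5M DMSO. In TTA-1 it was at 4.52, 4.27 and 4.33 FPKM with GDC-0994, against 13.7, 12.6 and 12.4 FPKM in DMSO. The DMSO libraries of both lines overlapped, and the treated ones were lower in each line without overlap. It kept 4.27% of its DMSO level in CPM in KHM-5M and 34.1% in TTA-1. Replicate 1 of KHM-5M GDC-0994 had 28 MYEOV counts, against 49 and 45 in the others of that group.

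**Figure D1:**
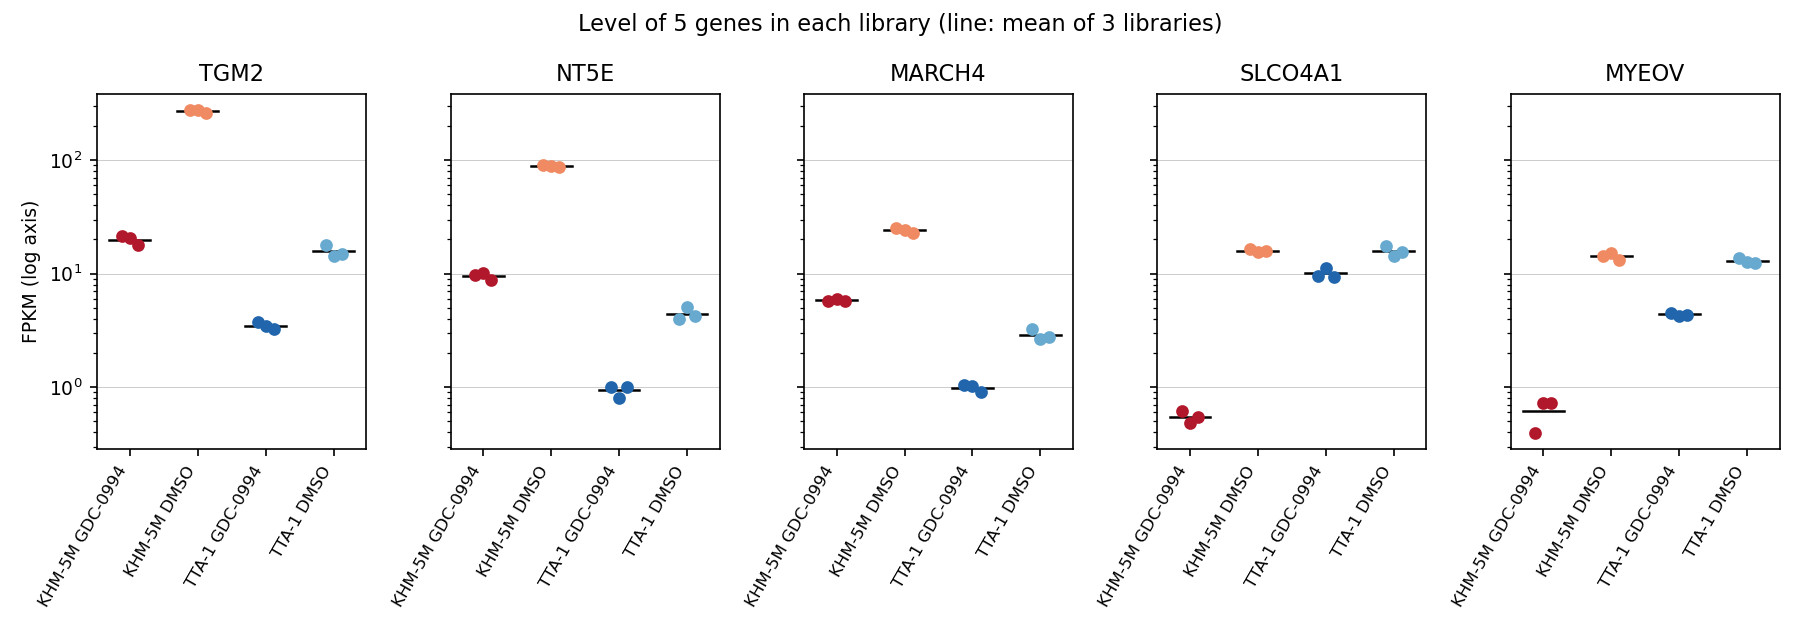
Level of each of the 5 genes in every library, in FPKM on a log axis; points are libraries, lines are means of 3 libraries, and the groups are KHM-5M GDC-0994, KHM-5M DMSO, TTA-1 GDC-0994 and TTA-1 DMSO from left to right. For TGM2, NT5E and MARCH4 the KHM-5M DMSO libraries are the highest, whereas for SLCO4A1 and MYEOV the DMSO libraries of both lines sit at 12.4 to 17.4 FPKM.

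As log2 fold changes of GDC-0994 over DMSO, with standard errors and no test, the 5 genes took different orders in the lines. In KHM-5M the values were -4.88 ± 0.13 for SLCO4A1, -4.56 ± 0.15 for MYEOV, -3.79 ± 0.10 for TGM2, -3.24 ± 0.09 for NT5E and -2.07 ± 0.09 for MARCH4. In TTA-1 they were -2.23 ± 0.12 for NT5E, -2.17 ± 0.10 for TGM2, -1.55 ± 0.12 for MYEOV, -1.53 ± 0.12 for MARCH4 and -0.65 ± 0.10 for SLCO4A1. So SLCO4A1 had the lowest value of the 5 in KHM-5M and the smallest difference of the 5 in TTA-1. In TTA-1 the values of NT5E and TGM2, and those of MYEOV and MARCH4, lay within 1 standard error of each other. The difference of the effects, KHM-5M minus TTA-1, ran from -0.54 ± 0.15 for MARCH4 to -4.24 ± 0.17 for SLCO4A1, with -1.01 ± 0.15 for NT5E, -1.63 ± 0.13 for TGM2 and -3.01 ± 0.20 for MYEOV.

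Among all genes tested, 49.8% were called in KHM-5M and 3.43% in TTA-1 at an adjusted p below 0.05. In KHM-5M 24.6% of the genes tested were higher and 25.1% lower with GDC-0994, and in TTA-1 1.18% were higher and 2.24% lower. These shares are the background of the rule, and nothing is read from them for genes it chose. The genes called lower numbered 4078 in KHM-5M and 364 in TTA-1, and 220 were lower in both, which is 5.39% of the KHM-5M list and 60.4% of the TTA-1 list. Of the 10 MAPK output genes, such as DUSP6 and SPRY4 that restrain the cascade, 9 fell and EPHA4, an ephrin receptor, rose in KHM-5M, while 8 fell in TTA-1. The TTA-1 count was 6 with only the groups compared, where DUSP6 (edgeR adjusted p = 0.09) and DUSP4 (0.0566) lost their calls, and 7 without TTA-1 GDC-0994 replicate 3, where DUSP4 did (edgeR adjusted p = 0.0717). The median log2 fold change of these 10 was -2.80 in KHM-5M and -0.89 in TTA-1, beside 0.02 and 0.01 over all genes tested. The rise of EPHA4 in KHM-5M was from a low level, with 6 counts in KHM-5M DMSO and 59 in KHM-5M GDC-0994.

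**Figure D2:**
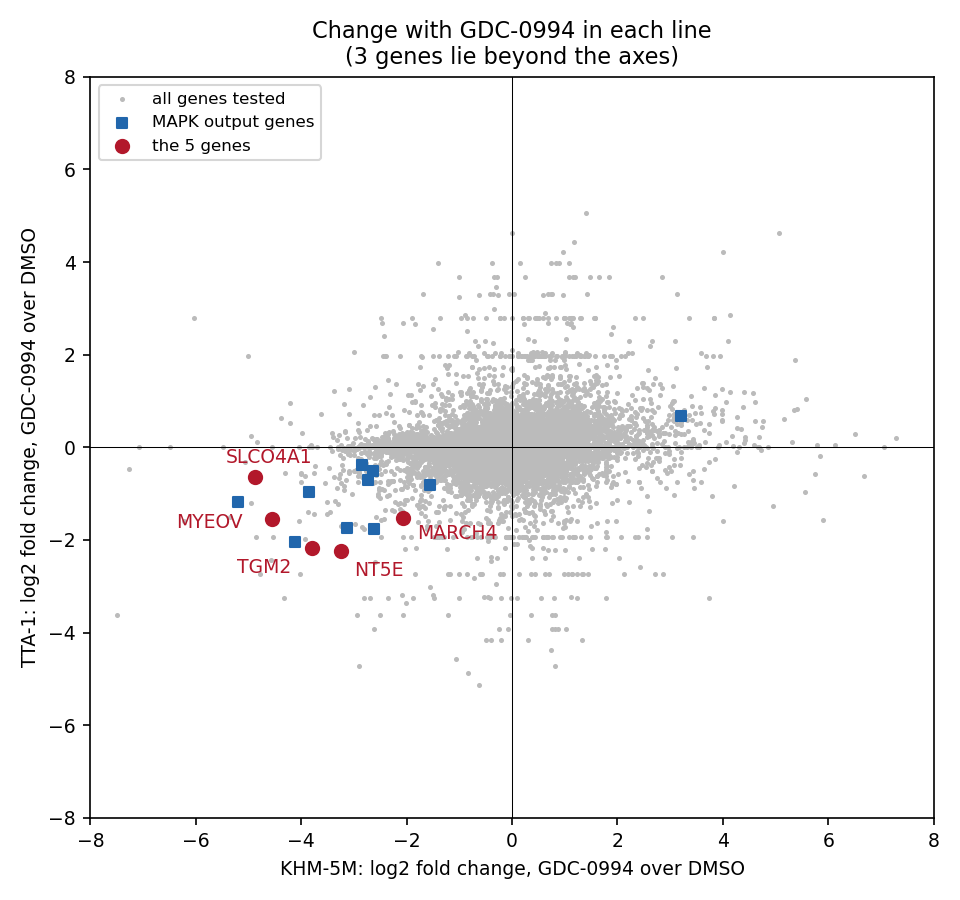
Log2 fold change of GDC-0994 over DMSO in KHM-5M (x axis) and in TTA-1 (y axis) for every gene tested (grey), the 10 MAPK output genes (blue squares) and the 5 genes (red); 3 genes lie beyond the axes. The 5 genes are at -4.88 to -2.07 in KHM-5M and -2.23 to -0.65 in TTA-1, and SLCO4A1 sits nearest to 0 on the y axis.

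The TTA-1 DMSO libraries that stood apart moved the TTA-1 values little. Without replicate 1 the log2 fold changes in TTA-1 were -2.07 for TGM2, -2.31 for NT5E, -1.46 for MARCH4, -0.58 for SLCO4A1 and -1.52 for MYEOV. Without replicate 2 they were -2.26, -2.15, -1.61, -0.74 and -1.59 in the same order of genes. Replicate 1 was the highest of its group for TGM2, MARCH4, SLCO4A1 and MYEOV and the lowest for NT5E.

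The lines were compared with edgeR's quasi-likelihood test and Benjamini-Hochberg adjustment over all genes tested. This contrast is not the one that chose the genes, although within DMSO it uses libraries that entered the choice. The p-values of the 5 genes in DMSO therefore describe the spread between these libraries and are no independent support. In DMSO, TGM2, NT5E and MARCH4 were higher in KHM-5M than in TTA-1, and SLCO4A1 and MYEOV did not pass, so that 3 of 5 were called, where 76.5% of all genes tested were, 39.6% as higher and 36.8% as lower in KHM-5M. NT5E averaged 409 ± 3.89 CPM in KHM-5M DMSO and 20.8 ± 2.62 CPM in TTA-1 DMSO (SD, n = 3 each), a log2 fold change of 4.30 (95% interval 4.09 to 4.51, edgeR adjusted p = 6.78e-16). TGM2 averaged 2212 ± 76.9 CPM in KHM-5M DMSO and 130.2 ± 16.8 CPM in TTA-1 DMSO, a log2 fold change of 4.09 (3.88 to 4.30, edgeR adjusted p = 1.37e-15). MARCH4 averaged 108 ± 4.43 CPM in KHM-5M DMSO and 13.2 ± 1.36 CPM in TTA-1 DMSO, a log2 fold change of 3.03 (2.83 to 3.23, edgeR adjusted p = 2.84e-14). A larger log2 fold change was found for 7.07% of the genes tested in the case of NT5E, 7.57% for TGM2 and 10.6% for MARCH4.

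For SLCO4A1, 65.6 ± 1.78 CPM in KHM-5M DMSO and 65.7 ± 6.68 CPM in TTA-1 DMSO differed by less than the spread between libraries. The interval of the log2 fold change ran from -0.20 to 0.20 (edgeR adjusted p = 0.976). For MYEOV, 54.2 ± 3.89 CPM in KHM-5M DMSO and 49.8 ± 2.57 CPM in TTA-1 DMSO gave an interval of -0.12 to 0.36 (edgeR adjusted p = 0.33). These intervals bound the difference and do not show that the lines are equal.

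Under GDC-0994 the difference between the lines uses the treated libraries on which the genes were chosen, and for SLCO4A1 and MYEOV, with DMSO differences near 0, it nearly equals the difference of the treatment effects. It is therefore given as values, with no test. SLCO4A1 averaged 2.21 ± 0.27 CPM in KHM-5M GDC-0994 and 42.0 ± 4.30 CPM in TTA-1 GDC-0994, a log2 fold change of -4.24. MYEOV averaged 2.32 ± 0.73 CPM in KHM-5M GDC-0994 and 17.0 ± 0.55 CPM in TTA-1 GDC-0994, a log2 fold change of -2.88. The log2 fold changes of TGM2, NT5E and MARCH4 were 2.46, 3.29 and 2.49, so that these genes had the higher level in KHM-5M under both treatments.

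The mean of the 2 line differences, over both treatments, weighs treated and DMSO libraries alike and so is not one of the contrasts that chose the genes. It was 3.79 for NT5E, 3.27 for TGM2, 2.76 for MARCH4, -1.38 for MYEOV and -2.12 for SLCO4A1. For NT5E, TGM2 and MARCH4 the edgeR adjusted p-values ran from 2.62e-17 to 8.58e-16. These genes were called where 84.4% of the genes tested were, 43.0% as higher and 41.4% as lower in KHM-5M. For SLCO4A1 and MYEOV this mean rests on the GDC-0994 libraries, given the DMSO values above, so it is given with no test.

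**Figure D3:**
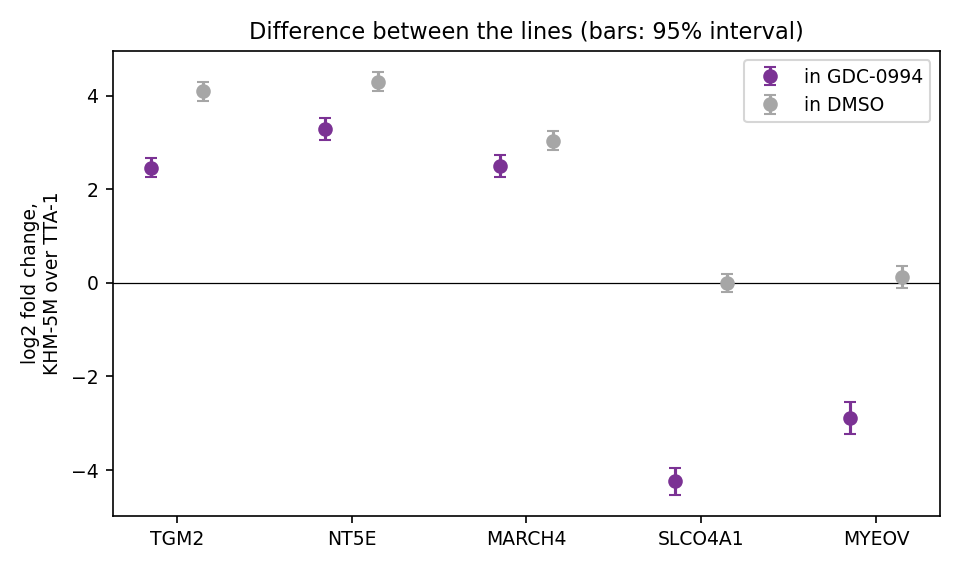
Log2 fold change of KHM-5M over TTA-1 in GDC-0994 (purple) and in DMSO (grey) for the 5 genes, with 95% intervals from the fit. The GDC-0994 intervals describe the spread between libraries and are not read as a test, because these libraries entered the choice of the genes. The values of TGM2, NT5E and MARCH4 are above 0 under both treatments. Those of SLCO4A1 and MYEOV are at about 0 in DMSO and below it in GDC-0994.

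Over the 12 libraries, TGM2, NT5E and MARCH4 varied together, as did SLCO4A1 with MYEOV. Pearson's r of log2(CPM + 1) was 0.99 for TGM2 with NT5E, 0.98 for TGM2 with MARCH4 and 1.00 for NT5E with MARCH4, and 0.96 for SLCO4A1 with MYEOV. The other pairs had 0.001 to 0.37. The points share their line and treatment, so these r values describe 4 groups more than 12 libraries. Once each group's mean was subtracted, r was -0.22 for TGM2 with NT5E, 0.78 for TGM2 with MARCH4 -0.47 for NT5E with MARCH4 and -0.35 for SLCO4A1 with MYEOV, and the value farthest from 0 was -0.83, for NT5E with SLCO4A1.

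The genes most like each of them were taken as the 3 protein-coding genes with the highest Pearson's r of log2(CPM + 1) over the 12 libraries, out of 12191 candidates. For TGM2 they were SLC35E4, DNMBP and HMGA2 (r = 0.988 to 0.989). HMGA2, a chromatin protein, averaged 49.96 CPM in KHM-5M GDC-0994, 197 in KHM-5M DMSO, 23.9 in TTA-1 GDC-0994 and 38.9 in TTA-1 DMSO. For NT5E they were CTGF, MT2A and KDSR (r = 0.989 to 0.993). CTGF, a matrix-associated growth factor, averaged 77.6 CPM in KHM-5M GDC-0994, 200.1 in KHM-5M DMSO, 37.2 in TTA-1 GDC-0994 and 55.8 in TTA-1 DMSO. MARCH4 shared MT2A, a metallothionein, and had ITGA3 and TOR4A beside it (r = 0.990 to 0.993). MT2A averaged 402 CPM in KHM-5M GDC-0994, 1164 in KHM-5M DMSO, 93.2 in TTA-1 GDC-0994 and 194 in TTA-1 DMSO.

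For SLCO4A1 the nearest were AURKB and BIRC5, both of the machinery of chromosome segregation, and UHRF1, which acts in maintaining DNA methylation (r = 0.996 to 0.997). AURKB averaged 12.02 CPM in KHM-5M GDC-0994, 91.7 in KHM-5M DMSO, 73.5 in TTA-1 GDC-0994 and 86.7 in TTA-1 DMSO, so that its low group was KHM-5M with GDC-0994, as for SLCO4A1. For MYEOV they were CDCP1, DOCK4 and SPHK1 (r = 0.986 to 0.990). CDCP1, a surface protein, averaged 34.9 CPM in KHM-5M GDC-0994, 143 in KHM-5M DMSO, 79.6 in TTA-1 GDC-0994 and 143 in TTA-1 DMSO. None of the 15 choices was kept when Spearman's rho was used as the measure, so the names depend on the measure.

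The adenosine pathway around NT5E was mixed in KHM-5M. Of 26 listed genes 16 were tested, and 5 rose and 8 fell in KHM-5M, while 1 fell in TTA-1, beside 49.8% and 3.43% of all genes called. The median log2 fold change was -0.28 in KHM-5M and -0.12 in TTA-1. In TTA-1 it was -0.07 without CD38, an ectoenzyme that uses NAD, which had at most 3 counts in each TTA-1 group. Upstream of NT5E, ENTPD1, which degrades ATP and ADP to AMP, averaged 1.05 ± 0.42 CPM in KHM-5M GDC-0994 and 2.27 ± 0.14 CPM in KHM-5M DMSO (log2 fold change -1.12, edgeR adjusted p = 0.00145). In TTA-1 it averaged 4.99 ± 0.53 CPM with GDC-0994 and 3.51 ± 0.08 CPM in DMSO and did not pass.

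Among the adenosine receptors, ADORA2B fell in both lines. It averaged 6.86 ± 1.12 CPM in KHM-5M GDC-0994 and 20.7 ± 0.38 CPM in KHM-5M DMSO, a log2 fold change of -1.58 ± 0.12 (edgeR adjusted p = 1.07e-08). In TTA-1 it averaged 27.8 ± 1.33 CPM with GDC-0994 and 39.7 ± 3.52 CPM in DMSO, a log2 fold change of -0.51 ± 0.11 (edgeR adjusted p = 0.0116). The TTA-1 call was lost without GDC-0994 replicate 3 (edgeR adjusted p = 0.0686), and over all alternatives its adjusted p ran from 0.000137 to 0.0686. ADORA1, another receptor, rose in KHM-5M to 54.5 ± 6.97 CPM with GDC-0994, against 35.3 ± 4.39 CPM in DMSO, and had 4 and 5 counts in all in the TTA-1 GDC-0994 and DMSO groups.

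Of the genes listed under adenosine removal and transport, the purine phosphorylase PNP fell in KHM-5M (log2 fold change -1.52, edgeR adjusted p = 8.43e-11), as did the transporter SLC29A1 (-0.95, edgeR adjusted p = 1.32e-08). The transporter SLC29A2 (0.84, edgeR adjusted p = 2.06e-05) and DPP4, a peptidase that binds adenosine deaminase (2.05, edgeR adjusted p = 3.8e-06), rose. Adenosine deaminase itself, ADA, rose by 0.50 and adenosine kinase, ADK, fell by 0.29 on the log2 scale in KHM-5M. Of the nucleotidases inside the cell, NT5C, NT5C3A and NT5M fell and NT5C2 rose in KHM-5M. The calls of NT5C and NT5C3A were lost under 6 and 3 of the alternatives, among them leaving out KHM-5M DMSO replicate 2 or 3 or KHM-5M GDC-0994 replicate 3 for either gene, and KHM-5M DMSO replicate 1 for NT5C, at adjusted p-values of 0.0569 to 0.0903.

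Around TGM2, 9 of 15 listed transglutaminases and partners were tested, and 6 rose and 1 fell in KHM-5M, whereas 1 rose and 1 fell in TTA-1. Of all genes tested, 24.6% rose and 25.1% fell in KHM-5M and 3.43% were called in TTA-1. The median log2 fold change was 0.55 in KHM-5M and -0.15 in TTA-1. TGM1, the other transglutaminase with a call, rose in KHM-5M to 2.66 ± 0.55 CPM with GDC-0994, against 0.74 ± 0.11 CPM in DMSO (edgeR adjusted p = 2.11e-05). Fibronectin, FN1, rose to 5506 ± 499 CPM in KHM-5M GDC-0994, against 3904 ± 189 CPM in KHM-5M DMSO (edgeR adjusted p = 6.47e-05). It was at 2.42 ± 0.50 CPM in TTA-1 GDC-0994 and 1.73 ± 0.28 CPM in TTA-1 DMSO and did not pass there. The integrin subunit ITGB1, the proteoglycan SDC4 and the receptors LRP1 and ADGRG1 also rose in KHM-5M, and the integrin subunit ITGB3 fell by 1.49 on the log2 scale (edgeR adjusted p = 3.59e-05).

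In TTA-1, LRP1 rose by 0.58 ± 0.14 (edgeR adjusted p = 0.0262) and the integrin subunit ITGA5 fell by 0.34 ± 0.08 on the log2 scale (edgeR adjusted p = 0.0245). Both calls were lost under 7 alternatives each. The adjusted p ran from 2.63e-05 to 0.341 for LRP1 and from 0.000918 to 0.114 for ITGA5. With the replicate number within each line as a block, it was 0.0534 for LRP1 and 0.0639 for ITGA5. TTA-1 DMSO replicate 3 and TTA-1 GDC-0994 replicates 1 and 2 each ended both calls when left out, and TTA-1 DMSO replicate 1 and GDC-0994 replicate 3 also ended that of ITGA5.

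Of 11 other SLCO transporters 7 were tested, 2 rose in KHM-5M and 1 rose in TTA-1, and none fell. Over all genes tested 49.8% were called in KHM-5M, 24.6% as higher and 25.1% as lower, and 3.43% in TTA-1. Some of these transporters had few counts in KHM-5M. SLCO1B3 had none, and SLCO5A1 had 3 in KHM-5M GDC-0994 and 8 in KHM-5M DMSO. The list had a median log2 fold change of 1.08 in KHM-5M and 0.13 in TTA-1. SLCO2B1, a transporter of steroid sulfates, had 23 counts in KHM-5M GDC-0994 and 2 in KHM-5M DMSO, a ratio of 11.3 with a counting interval of 2.80 to 99.1. In TTA-1 it averaged 42.2 ± 0.93 CPM with GDC-0994 and 24.2 ± 1.36 CPM in DMSO, a log2 fold change of 0.80 ± 0.13 (edgeR adjusted p = 0.00137). SLCO1B1, known from the liver, averaged 1.15 ± 0.14 CPM in KHM-5M GDC-0994 and 0.46 ± 0.09 CPM in KHM-5M DMSO (edgeR adjusted p = 0.0143) and had no counts in TTA-1. Its call was lost without KHM-5M DMSO replicate 2 or 3 (edgeR adjusted p = 0.0533 and 0.0525). SLCO3A1, detected in both lines, was at 11.9 ± 0.85 CPM in KHM-5M GDC-0994 and 12.1 ± 1.83 CPM in KHM-5M DMSO.

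Of 10 other MARCH ubiquitin ligases 8 were tested, 3 rose and 1 fell in KHM-5M, and 1 fell in TTA-1. The KHM-5M share is that of all genes tested, 49.8%, and 3.43% were called in TTA-1. The median log2 fold change was 0.22 in KHM-5M and 0.01 in TTA-1. MARCH3 was the gene that fell in both lines. It averaged 4.12 ± 0.66 CPM in KHM-5M GDC-0994 and 7.96 ± 0.32 CPM in KHM-5M DMSO (log2 fold change -0.94 ± 0.14, edgeR adjusted p = 2.38e-05). In TTA-1 it averaged 15.5 ± 1.16 CPM with GDC-0994 and 22.4 ± 0.76 CPM in DMSO (log2 fold change -0.54 ± 0.12, edgeR adjusted p = 0.0154). The TTA-1 call was lost without TTA-1 DMSO replicate 3 (edgeR adjusted p = 0.0609) or TTA-1 GDC-0994 replicate 3 (edgeR adjusted p = 0.0898), and its adjusted p ran from 0.000405 to 0.0898 over all alternatives. MARCH1 rose in KHM-5M by 1.14, MARCH8 by 0.44 and MARCH5 by 0.22 on the log2 scale. MARCH5, a ligase of the mitochondrial membrane, lost its call under 4 alternatives, among them leaving out KHM-5M DMSO replicate 2 or KHM-5M GDC-0994 replicate 2 and the replicate block. MARCH6 (log2 fold change 0.21, edgeR adjusted p = 0.0608) and MARCH7 (0.32, edgeR adjusted p = 0.0809) did not pass in KHM-5M, but MARCH6 was called under 12 of 20 alternatives and MARCH7 under 5. The number of ligases called in KHM-5M was 3 to 6 with a library left out. It was 6 without KHM-5M GDC-0994 replicate 1, TTA-1 DMSO replicate 1 or TTA-1 DMSO replicate 2.

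**Figure D4:**
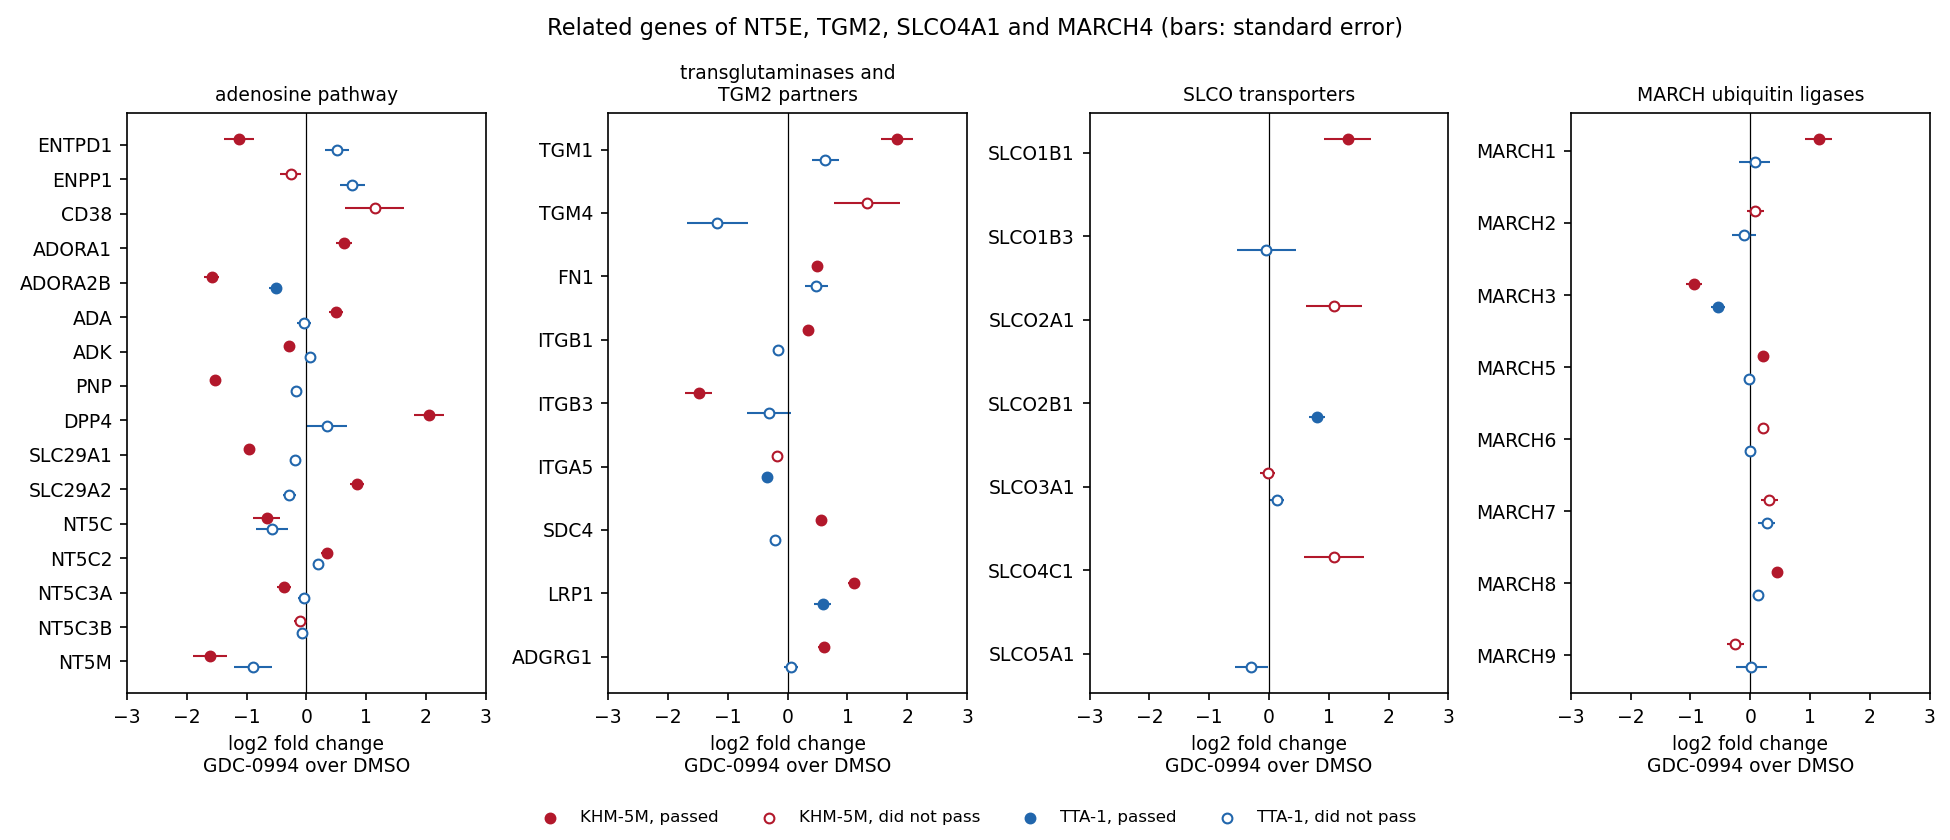
Log2 fold change of GDC-0994 over DMSO with its standard error for the tested genes of 4 lists, in KHM-5M (red) and TTA-1 (blue), filled where the edgeR adjusted p was below 0.05. A line's value is drawn where each of its groups had at least 10 counts in sum. ADORA2B and MARCH3 are to the left of 0 and filled in both lines, and LRP1 is to the right of 0 and filled in both.

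Counts in TTA-1 depended on its libraries. Without TTA-1 DMSO replicate 2, 2620 genes (15.7%) were called in TTA-1 instead of 556, with 4 of the adenosine pathway instead of 1 and 2 of the MARCH ligases instead of 1. Without TTA-1 GDC-0994 replicate 3, 259 genes (1.55%) were called, with none of the adenosine pathway. Without TTA-1 DMSO replicate 1, TTA-1 DMSO replicate 3 or TTA-1 GDC-0994 replicate 2, 349, 311 and 311 genes were called.

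NT5E is one of several surface proteins that are used together to mark mesenchymal stromal cells. Of 9 others, 7 were tested, and 3 rose and 3 fell in KHM-5M, while 1 fell in TTA-1, with medians of 0.08 and 0.10 on the log2 scale, beside 49.8% of all genes called in KHM-5M and 3.43% in TTA-1. CD44, the hyaluronan receptor, fell in both lines. It averaged 178 ± 7.93 CPM in KHM-5M GDC-0994 and 665 ± 12.7 CPM in KHM-5M DMSO (edgeR adjusted p = 3.45e-13), and 133 ± 2.00 CPM in TTA-1 GDC-0994 and 181 ± 4.82 CPM in TTA-1 DMSO (edgeR adjusted p = 0.000399). Endoglin, ENG, fell in KHM-5M by 1.01 on the log2 scale, and THY1 rose by 0.51.

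Genes near the 5 were looked at in a window of 250 kb on either side. It held 96 other genes, 29 of them tested, of which 6 rose and 15 fell in KHM-5M, and none was called in TTA-1. In KHM-5M, 49.8% of all genes tested were called, and in TTA-1 3.43% were. The lincRNA AP005233.2, 3737 bases from MYEOV, had 2 counts in KHM-5M GDC-0994 and 176 in KHM-5M DMSO, a ratio of DMSO over GDC-0994 of 89.4 with a counting interval of 24.4 to 744. TPCN2, the protein-coding neighbour of MYEOV that was tested, had 19.1 CPM in KHM-5M GDC-0994 and 20.3 CPM in KHM-5M DMSO. CCND1, which lies outside this window and is on the MAPK output list, fell in both lines. It had 79.4 CPM in KHM-5M GDC-0994 and 530 CPM in KHM-5M DMSO (edgeR adjusted p = 1.02e-13). In TTA-1 it had 134 CPM with GDC-0994 and 218 CPM in DMSO (edgeR adjusted p = 2.68e-05). Near NT5E, the lincRNA LINC02535 fell in KHM-5M to 0.61 CPM with GDC-0994, against 3.53 CPM in DMSO (edgeR adjusted p = 6.58e-06), while SNX14, 9705 bases away, rose by 0.44 on the log2 scale (edgeR adjusted p = 0.0187). Near SLCO4A1, the lincRNA BX640514.2 fell to 1.95 CPM in KHM-5M GDC-0994, against 8.15 CPM in KHM-5M DMSO (edgeR adjusted p = 7.96e-07). Near TGM2, 4 genes were tested, and 1 rose and 3 fell in KHM-5M. Of these, KIAA1755 fell to 0.24 CPM in KHM-5M GDC-0994, against 1.28 CPM in KHM-5M DMSO (edgeR adjusted p = 0.00211). In TTA-1 it had 0.05 CPM with GDC-0994 and 0.50 CPM in DMSO and did not pass (edgeR adjusted p = 0.0722).

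Because the libraries do not mark the strand, reads in exons that a gene shares with another cannot be told apart. TGM2 shared 394 exonic bases, 4.90% of its own, with RPRD1B, which was at 85.4 CPM in KHM-5M GDC-0994 and 101.2 CPM in KHM-5M DMSO. SLCO4A1 shared 346 bases, 8.54% of its own, with SLCO4A1-AS1, which had 36 counts over the 12 libraries. MARCH4 shared 85 bases with the antisense gene AC012513.1, which had 21 counts. The antisense genes AL357033.4 and AL357033.3, inside the span of SLCO4A1 but with no exonic base shared, rose in KHM-5M by 1.31 and 1.25 on the log2 scale (edgeR adjusted p = 0.00283 and 0.0154). With no strand marked, their reads cannot be told apart from reads of SLCO4A1 introns.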

How the data were processed

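Polyadenylated RNA of 12 libraries was sequenced. The submitters' processing notes list the build GRCh38 and the tools featureCounts 1.5.0-p3, HISAT2 2.0.5 and CASAVA, with no role or order. Per the labels, no step of the library protocol marks the strand. The deposited counts are whole numbers of reads per gene, which the authors did not normalize. The deposited FPKM, which the authors scaled by length and library size, equalled count over length over 1 library size within a relative 2.91e-08. The 27 names deposited as dates were resolved through their IDs. In the labels, all 3 KHM-5M GDC-0994 samples have the same description, so their columns were matched by the replicate numbers in the titles.

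Counts were fitted with edgeR 4.0.16 in R 4.3.3 (filterByExpr with a minimum count of 10 and total of 15, TMM, glmQLFit and glmQLFTest, 1 model of 12 libraries with a mean per group, 8 residual degrees of freedom). P-values were adjusted by Benjamini-Hochberg over 16218 genes, and below 0.05 a gene is called, and rose or fell in the text. Standard errors came from the fold change and F statistic. Counting intervals of 2 sums of counts are exact at the 95% level and cover counting error only. The procedure was tested on simulated data. Libraries were not paired by replicate number.

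The 5 genes and the lists were chosen with earlier results of these data known. The text names the 5 genes, the 3 most similar protein-coding genes of each, tested genes within 250 kb, and genes of the lists adenosine pathway, transglutaminases and TGM2 partners, SLCO transporters and MARCH ligases. CD44, ENG and THY1 of the stromal markers and EPHA4, CCND1, DUSP4, DUSP6 and SPRY4 of MAPK output were picked after their values were seen. So were the examples among similar and neighbouring genes. The line comparison under GDC-0994, planned as a test, is given with no test because its libraries entered the choice of the genes. For the same reason the mean over both treatments is given with no test for SLCO4A1 and MYEOV. The DMSO libraries entered the choice too, so the p-values of the 5 genes in DMSO are no independent support. Alternatives were the size factors of DESeq2 1.42.0 in edgeR, its Wald test, leaving out the filter, a stricter filter (mean count of 50, and 1 CPM in 3 libraries), a fit of the compared groups alone, the replicate number as a block, limma 3.58.1 on log2(FPKM + 1) and log2(FPKM + 0.1), and leaving out each library. For GDC-0994 against DMSO the block was the replicate number within each line.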

Additional observations from a re-analysis of the deposited data

How the results depend on the processing

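Among the 5 genes, the log2 fold changes of GDC-0994 over DMSO stayed negative in both lines under all 20 alternatives. The alternatives reuse the libraries on which the genes were chosen, so this sign is no separate support. The number called between the lines in DMSO stayed at 3. The pseudocount of log2(FPKM + 1) shrank the values of low groups, in KHM-5M to -3.46 for SLCO4A1 and -3.24 for MYEOV, and in TTA-1 to -1.49 for NT5E and -0.96 for MARCH4. The 556 genes called in TTA-1 became 917 with DESeq2's Wald test, 1206 with no filter, 206 with only the groups compared and 259 to 2620 when a library was left out. In TTA-1 the 1 called gene of the adenosine pathway became 2 with DESeq2's Wald test, 3 with no filter, 2 with the replicate block and 0 to 4 with a library left out. The 2 of the transglutaminase list became 0 with only the groups compared, 0 with the replicate block, 1 with limma on log2(FPKM + 1), 1 on log2(FPKM + 0.1) and 0 to 3 with a library left out, and the 1 MARCH ligase became 0 to 2. In KHM-5M the 2 SLCO transporters became 4 with no filter and 1 with the stricter filter. They became 4 with limma on log2(FPKM + 0.1) and 1 to 3 with a library left out. With only the groups compared, SLCO2A1 and SLCO4C1 gained calls (edgeR adjusted p = 0.0392 and 0.0386). The 4 MARCH ligases in KHM-5M became 7 with only the groups compared and 3 to 6 with a library left out. MARCH5 lost its call with the replicate block, and MARCH6 gained one with DESeq2's size factors and with its Wald test. The cause of these shifts was not tested. Deviations from the group mean correlated at -0.07 to 0.16 between libraries with the same replicate number and at -0.24 to 0.25 between those with different numbers, and with the replicate block 529 genes were called in TTA-1.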
